A study of Mus musculus and blank sample with 91 samples.

Results

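Lactobacillaceae are rod-shaped lactic acid bacteria of the gut, and the members described here were all amplicon sequence variants (ASVs) whose deposited taxonomy names this family. They were 107 of 2295 ASVs, or 4.66%, and held 1242667 of 5612448 counts, or 22.1%. All 107 carried the genus name Lactobacillus. ASVs were read from the V3 and V4 regions of the bacterial 16S rRNA gene in fecal DNA of female C57BL/6 mice (C57BL/6J in the study's methods), bought at an age of 8 weeks. Naïve mice were untreated, and CFA mice received Complete Freund's Adjuvant, an emulsion with killed mycobacteria, and no peptide. EAE mice received 50 μg of the myelin peptide MOG35–55 in the same adjuvant and 250 ng of pertussis toxin on days 0 and 2, which induces experimental autoimmune encephalomyelitis (EAE), a model of multiple sclerosis with ascending paralysis. The labels describe the toxin with the EAE immunization and name only the adjuvant for CFA mice, so that peptide and toxin cannot be told apart here. Feces were taken once before immunization, at -2 dpi (days post-immunization), and at 8 and 14 and 19 and 29 dpi after it from 6 mice per group, or 88 samples in all, with 5 mice among EAE at 14 dpi and 5 with counts among CFA at 29 dpi. Treatment was assigned by cage at 2 to 3 mice per cage, so that cage and treatment cannot be told apart. Total counts per sample had a median of 64586, a minimum of 9202 and a maximum of 102437.

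Lactobacilli ferment sugars to lactic acid and are common in the small intestine, the cecum and, in rodents, the forestomach. Lactobacillus johnsonii, Lactobacillus gasseri and Lactobacillus taiwanensis are close relatives whose 16S rRNA genes are nearly alike, which is why short reads often cannot separate them. An ASV is an exact read sequence kept after a model of sequencing errors, and a difference of a single base makes a separate ASV. Shares of counts are relative. A lower share can come from fewer cells of a taxon or from more cells of the others, and these counts cannot tell the cases apart.

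The primers are shown because they decide how many ASVs a single bacterial sequence gives. Both were still part of the deposited ASVs and are mixtures at their degenerate positions, all of which are marked here with a capital N.
Forward primer: cctacgggNggcNgcag
Reverse primer: gactacNNgggtatctaatcc
In the forward primer of 17 bases, position 9 is any base and position 13 is A or T. In the reverse primer of 21 bases, counted from its 5′ end, position 7 is any base but G (called H) and position 8 any base but T (called V). They allow 72 combinations for the same bacterial template. After both primers were cut off and ASVs with identical inserts were summed, the 2295 ASVs became 501 sequences and the 107 members became 49. These are called L1 to L49 here, in order of their summed counts.

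A single sequence, L1, held nearly all of the family. It carried the name L. johnsonii, had 427 bases between the primers, and had been deposited as 28 ASVs. L1 had 1240428 counts, which was 99.8% of the family's counts, and was found in 86 of 88 samples. It was the only sequence with at least 1% of the family's counts or with counts in at least 9 samples.

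**Figure D1:**
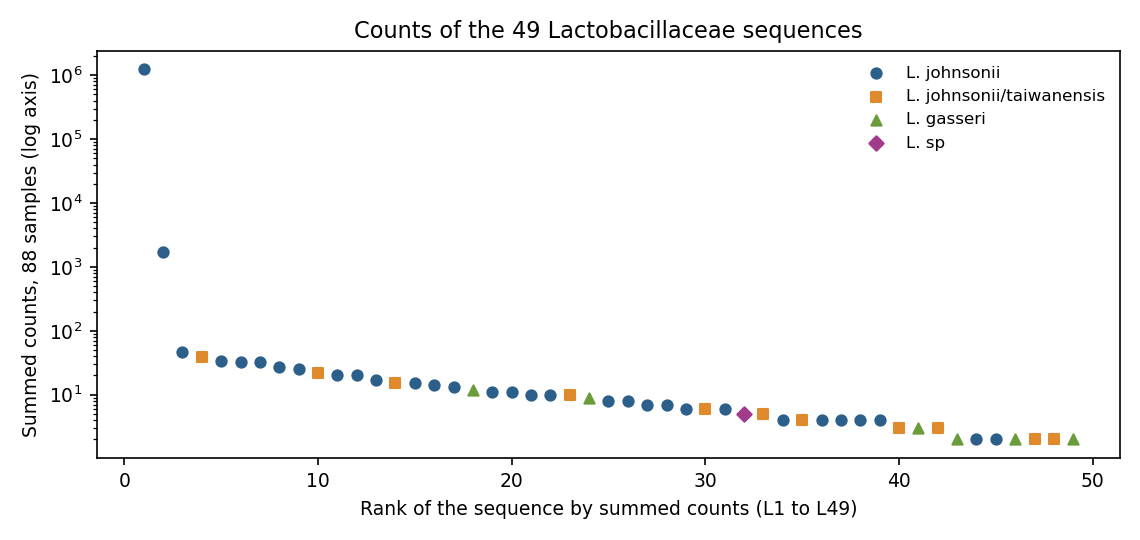
Summed counts over 88 samples (y axis, log scale) of the 49 Lactobacillaceae sequences ranked from L1 to L49 (x axis), with colour and shape for the species name. L1 lies at 1240428 counts, L2 at 1687 and all others at 47 or fewer.

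The species names divided the members very unevenly. L. johnsonii was the name of 83 ASVs and 31 merged sequences with 1242521 counts, in 86 samples. L. johnsonii/taiwanensis, a name that covers both species, was given to 16 ASVs and 11 merged sequences, which had 111 counts in 10 samples. L. gasseri was given to 7 ASVs and 6 merged sequences with 30 counts in 6 samples. Lactobacillus sp was given to 1 ASV with 5 counts in 1 sample. No ASV of these 3 names occurred in more than 1 sample. No merged sequence carried more than 1 species name.

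By treatment, L. johnsonii was present in 30 of 30 naïve, 29 of 29 CFA and 27 of 29 EAE samples. L. johnsonii/taiwanensis was counted in 3 naïve, 6 CFA and 1 EAE samples, and L. gasseri in 2 naïve, 3 CFA and 1 EAE samples. These numbers are too small to set the treatments against each other, and both names passed the filter of counts in at least 3 samples only as sums of ASVs that never recurred. In the edgeR fit of species neither name was called in any of the 27 comparisons, in which 0% to 17.9% of all labels were called in either direction.

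L2 was the only other sequence above 47 counts, and it is described although the naming rule did not select it. It was chosen after its values were seen. L2 had the length of L1 and differed from it by G88A, where the base of L1 stands first and positions count from 1 at the first base after the forward primer. It was deposited as 5 ASVs with 1687 counts in 4 samples. The counts were 300 in CFA mouse 544 at -2 dpi, 757 in CFA mouse 546 at 8 dpi, 186 in CFA mouse 545 at 29 dpi and 444 in EAE mouse 550 at -2 dpi. Against L1 of the same sample these were 1.48%, 2.16%, 2.72% and 1.71%. The 4 samples came from different mice, and no mouse held L2 on more than 1 day. L2 was not called in any comparison of the edgeR fit of merged sequences.

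The remaining 47 sequences, from 74 ASVs, had 552 counts in all, or 0.0444% of the family. They had 2 to 47 counts each, 43 of them occurred in 1 sample and 4 in 2 samples. L1 was present wherever they occurred and had at least 2364 counts there, and their counts were 0.00745% to 0.265% of those of L1. They occurred in 13 of 30 naïve, 17 of 29 CFA and 9 of 29 EAE samples.

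The rare sequences shared a long exact run with the leading ones at an end of the amplicon and departed from them over the rest. Each of the 47 held a run of 153 to 357 bases, with a median of 281, that was identical to L1 or L2. The run lay at the end next to the reverse primer in 41 sequences and at the end next to the forward primer in 6. The other part matched a sequence of another family exactly in 38 of 47 and within 2 mismatches in 44. Its nearest family was Lachnospiraceae for 20, Ruminococcaceae for 11, Erysipelotrichaceae for 6 and Oscillospiraceae for 4 sequences. No such values are given here for rare sequences outside the family, so the layout cannot be called particular to Lactobacillaceae.

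This layout was shared by the species names. The 11 sequences named L. johnsonii/taiwanensis held runs of 238 to 283 bases, all at the end next to the reverse primer, and the other part of 8 of them matched another family exactly. The 6 sequences named L. gasseri held runs of 283 to 357 bases, with 4 exact matches of the rest. The single Lactobacillus sp sequence shared its first 153 bases after the forward primer with L2, and its rest matched exactly. No sequence of these 3 names lacked such a run. All counts of the names gasseri, taiwanensis and sp came from sequences with such a run. The other part of L10 (L. johnsonii/taiwanensis) and of L43 (L. gasseri) had 7 and 17 mismatches to the nearest sequence of another family.

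**Figure D2:**
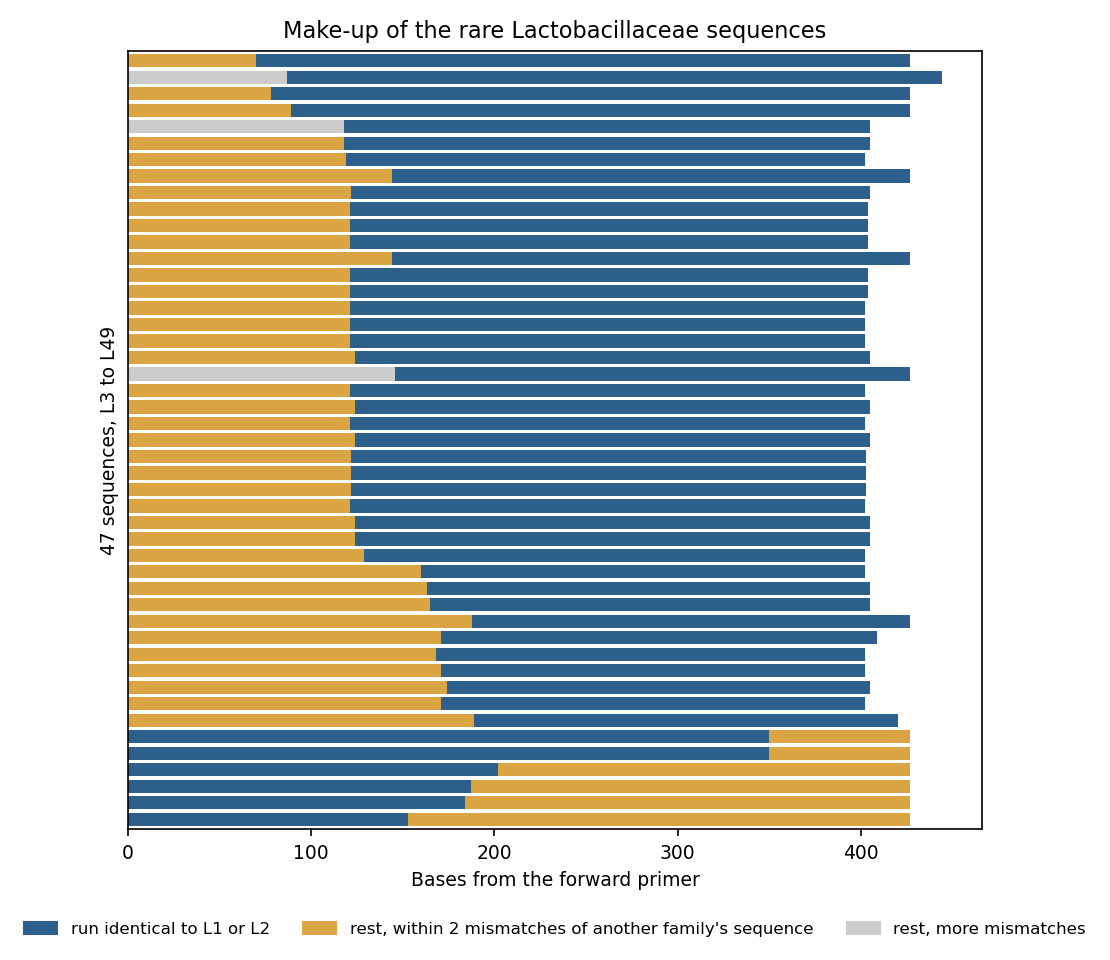
Make-up of the 47 rare sequences L3 to L49 (rows) along their bases from the forward primer (x axis), with the run identical to L1 or L2 in blue and the rest in yellow where it lies within 2 mismatches of a sequence of another family and in grey elsewhere. The identical run is at the right in 41 rows and at the left in 6, and 3 rows are grey.

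As a stricter description, a sequence was called rebuilt when joining the start of one sequence with the end of another, both with more than 2 times its counts in the same sample, gave it exactly. This held for 13 of the 47 (27.7%). Outside the family it held for 34 of 156 sequences that were as rare (21.8%) and for 0 of 295 sequences with more than 47 counts. How the rare sequences arose was not tested. Chimera removal had been part of the processing before deposit.

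The 28 ASVs of L1 differed from each other only at the 4 degenerate positions. In the 48 samples that listed all 28, position 9 of the forward primer was A in 42.7% ± 2.34 of L1 counts (SD, n = 48), T in 37.6% ± 2.38, G in 16.8% ± 1.34 and C in 2.83% ± 0.473. Position 13 was A in 94.1% ± 0.909 and T in 5.85% ± 0.909. The bases at the reverse primer were less uneven, with A at the V position in 52.8% ± 4.88 and T, C and A at the H position in 38.7% ± 1.54, 31.3% ± 2.72 and 30.1% ± 2.67. Sequences of other families showed the same order at the forward primer in these samples, with A at position 9 in 47.2% ± 5.53 and A at position 13 in 88.3% ± 2.55.

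The 5 ASVs with the most counts were all primer variants of L1. They had A at position 13, T as read at the V position of the reverse primer, and either A or T at position 9. Their counts were 86562 and 84818 (A and T at position 9, A as read at the H position), 77144 and 72440 (T and A, T as read) and 65579 (A, G as read). On average over the 48 samples a variant held between 1.32% and 6.13% of L1, and the 5 largest mean shares added up to 28.2%.

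The number of primer variants listed for L1 was higher in samples with more of its counts, and was low in EAE mice from 14 dpi on. All 28 were listed in 23 of 30 naïve and 20 of 29 CFA samples, and in 4 of 6 EAE samples at -2 dpi. At 8 dpi EAE mice had 1 to 28 variants with a median of 8.5. In the 17 EAE samples at 14, 19 and 29 dpi no sample listed all 28, 8 listed a single variant and 2 listed none. CFA samples at 8 dpi also listed fewer than at other days, from 5 to 28 with a median of 16.5, and 18713 counts of CFA mouse 545 were spread over 13 variants.

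At low counts the sequences of other families listed few variants as well. Between 300 and 1000 counts, L1 had a median of 1 variant in 6 samples, all of EAE mice, and other sequences had a median of 1 over 1432 occurrences. Between 1000 and 2000 counts the medians were 2 in 4 samples and 2 over 470 occurrences. Between 4000 and 8000 counts L1 had a median of 18.5 variants in 4 EAE samples and of 21 in 9 other samples, while other sequences had a median of 5 over 91 occurrences. In the 9 samples with a single variant of L1, that variant on average holds between 4.07% and 5.91% of L1 elsewhere.

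**Figure D3:**
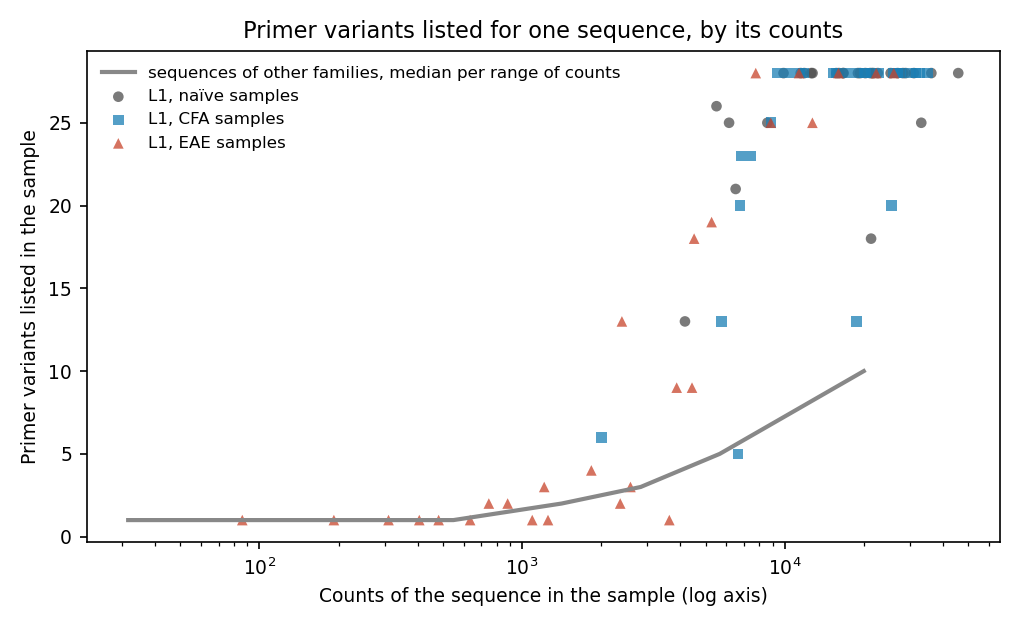
Number of primer variants listed for L1 in a sample (y axis) against its counts there (x axis, log scale), with a point per sample and colour and shape for the treatment, and the grey line for the median of sequences of other families. Samples under 1000 counts list 1 or 2 variants, and most samples above 8000 counts list 28.

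L1 held about the same share of counts in the 3 groups before immunization. At -2 dpi its share was 18.7% to 53.7% in naïve mice (median 30.4%), 28.1% to 58.6% in CFA mice (median 34.4%) and 19.7% to 40.3% in EAE mice (median 31.2%). The groups overlapped. Over all days it ranged from 6.59% to 63.4% in naïve mice (median 29.0%, 30 samples) and from 6.42% to 58.6% in CFA mice (median 28.9%, 29 samples). Single naïve mice varied 1.99- to 8.21-fold between their lowest and highest day.

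At 8 dpi EAE mice had 4.93% (mouse 550), 14.8% (551), 3.97% (553), 39.5% (555), 9.62% (556) and 13.8% (557). All but mouse 555 lay below their own value at -2 dpi. The sample of mouse 555 stands apart, since it had the lowest total of all, 9202 counts, in 4 ASVs, and its 3636 counts of L1 were a single primer variant. Naïve mice ranged from 8.58% to 63.4% and CFA mice from 6.42% to 56.4% on that day.

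At 14 dpi the 5 EAE mice had 1.45% (mouse 588), 2.34% (589), 1.07% (591), 0.258% (593) and 0.602% (595). At 19 dpi the 6 mice had 0.723% (588), 6.34% (589), 0.185% (591), 1.70% (593), 0.676% (594) and 0 (595). At 29 dpi they had 1.64% (588), 3.78% (589), 4.78% (591), 0 (593), 0.768% (594) and 4.65% (595). All 17 values lay below the lowest value of any naïve or CFA sample, 6.42%. On every one of the 3 days the EAE values did not overlap with those of naïve or CFA mice. How many other sequences or labels also did not overlap was not counted, so this does not set L1 apart from them.

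The 2 samples without L1 had unlike depths. EAE mouse 593 at 29 dpi had 96416 counts, and 0 listed counts allow a listed share of up to 0.00311% at a floor of 3 counts. EAE mouse 595 at 19 dpi had 15279 counts, which allow up to 0.0196%. Exact 95% binomial intervals of L1 shares were at most 2.01 percentage points wide. Intervals and floors cover counting error of the listed ASVs only, since reads were not counted as molecules, and they do not limit L1 where reads of its primer variants were not listed.

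**Figure D4:**
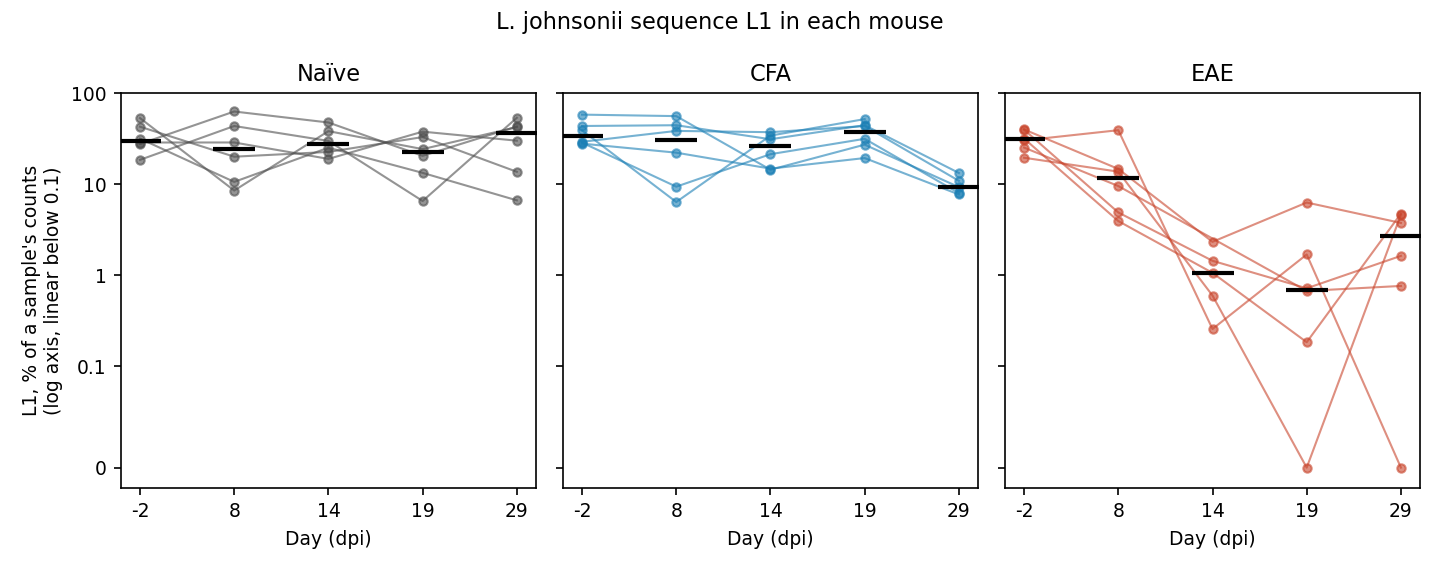
Share of L1 in a sample's counts (y axis, log scale above 0.1% and linear below) by day (x axis) for naïve, CFA and EAE mice, with a line per mouse and a black bar at the group median. EAE mice were joined across days by subject number, and all 17 EAE samples from 14 dpi on lie below 6.42%.

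L. johnsonii was lower in EAE than in naïve mice from 14 dpi on. The comparison asks how the taxon differed between immunized EAE mice, with or without clinical signs, and untreated mice on each day. By the edgeR quasi-likelihood test over 95 species labels, its log2 fold change at 14 dpi was -5.32 ± 1.35 (SE, adjusted p = 0.00374). The values for 19 dpi and 29 dpi were -4.75 ± 1.21 (adjusted p = 0.00603) and -4.46 ± 1.19 (adjusted p = 0.00727). With only the EAE and naïve samples of 29 dpi in the fit, that call was lost (edgeR, adjusted p = 0.355). On these days 1.05%, 2.11% and 6.32% of all labels were called lower. Of the 3 tested Lactobacillus labels, L. gasseri and L. johnsonii/taiwanensis had no counts in EAE or naïve mice on these days. They could therefore not be called. At 8 dpi the value was -2.54 ± 1.09 and was not called by edgeR (adjusted p = 0.0920), while DESeq2 gave -2.82 (adjusted p = 0.00271, 18.4% of 87 labels called lower). The mean share of counts was 14.4% in EAE and 29.3% in naïve mice on that day (exact permutation test, two-sided, p = 0.169, adjusted p = 0.909 over 95 labels, none of which was called).

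The mean shares were 1.14% in EAE and 30.7% in naïve mice at 14 dpi (exact permutation test, two-sided, p = 0.00216, adjusted p = 0.0228, with 9.47% of labels called). Without any one of the 5 EAE mice the call was lost (exact permutation test, adjusted p = 0.0503). The adjusted p was the same whichever mouse was left out. Leaving out a mouse also raises the smallest p that the test allows, so this loss does not speak to any single mouse. At 19 dpi the mean shares were 1.60% and 22.7%, and at 29 dpi 2.61% and 31.8%. Both raw p-values were 0.00216, the smallest that 6 against 6 mice allow, and both adjusted p-values were 0.0685 in the exact permutation test. With 95 labels this test called no label on these 2 days (0%).

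Against CFA mice, which share the adjuvant, L. johnsonii was lower in EAE mice at 14 and 19 dpi. The log2 fold changes in edgeR were -4.67 ± 1.30 and -5.47 ± 1.25 on these days, with adjusted p-values of 0.0105 and 0.00104, where 3.16% and 2.11% of labels were called lower. At 29 dpi it was -2.21 ± 1.11 and was not called (adjusted p = 0.146), but was in DESeq2 (-2.68, adjusted p = 0.00842, 8.05% of labels called lower). The mean shares at 14 dpi were 1.14% and 25.7% (exact permutation test, adjusted p = 0.0374, 11.6% of labels called). At 19 dpi they were 1.60% and 36.6% (exact permutation test, adjusted p = 0.0411, 5.26% of labels called), and at 29 dpi 2.61% and 9.96% (adjusted p = 0.206, 0% called). The call on shares was lost without any one of the 5 EAE mice at 14 dpi (exact permutation test, adjusted p = 0.0696 to 0.0823) and without EAE mouse 595 at 19 dpi (adjusted p = 0.0588). At 14 dpi a left-out mouse also raises the smallest p that the test allows. At 8 dpi the log2 fold change was -2.42 ± 1.09 and was not called by edgeR (adjusted p = 0.0815, 7.37% of labels called lower), while DESeq2 gave -2.25 (adjusted p = 0.0216, 16.1% of labels called lower).

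CFA mice had low shares of L1 at 29 dpi. The values were 10.98% (mouse 543), 8.06% (544), 7.77% (545), 9.36% (546) and 13.4% (547), while naïve mice had 6.70% to 54.1% with a median of 36.5%. The groups overlapped through naïve mouse 563. The log2 fold change of L. johnsonii between CFA and naïve mice was -2.25 ± 1.16 in edgeR and was not called (adjusted p = 0.155, 2.11% of labels called lower), and the permutation test gave p = 0.0368 and an adjusted p of 0.384 (exact, two-sided, 0% called). At -2, 8, 14 and 19 dpi the log2 fold change between CFA and naïve mice lay between -0.64 and 0.73 with SEs of 1.03 to 1.04.

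Within mice, the share of L. johnsonii was lower than at -2 dpi in all CFA mice at 29 dpi and in nearly all EAE mice. All 5 CFA mice with both days were lower, with changes of -49.3 to -18.5 percentage points (paired exact sign-flip test, p = 0.0625, the smallest that 5 pairs allow, adjusted p = 0.990, 0% of labels called). In EAE mice, joined here by the subject number that accompanies the deposited counts, 5 of 6 were lower at 8 dpi, 5 of 5 at 14 dpi, 6 of 6 at 19 dpi and 6 of 6 at 29 dpi. The mean changes were -17.0, -31.5, -29.9 and -28.9 percentage points. Naïve mice changed in both directions, with 3, 4, 5 and 3 of 6 lower on the 4 days and mean changes of -4.76, -3.38, -11.3 and -2.23 points.

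In edgeR the log2 fold change of L. johnsonii in EAE mice against -2 dpi was -2.21 ± 1.08, -5.08 ± 1.33, -4.89 ± 1.22 and -3.76 ± 1.15 at 8, 14, 19 and 29 dpi, with adjusted p-values of 0.140, 0.0183, 0.00848 and 0.0386. Calls lower made up 5.26%, 3.16%, 3.16% and 3.16% of labels. The calls at 19 and 29 dpi were lost with only the compared groups in the fit (edgeR, adjusted p = 0.0816 and 0.152), and that at 29 dpi without the filter on rare labels (adjusted p = 0.0547). With the subject number as a replicate block the call at 29 dpi was lost, at -4.43 with an adjusted p of 0.147 in edgeR. The mean share at 14 dpi was 1.14% against 31.5% at -2 dpi (unpaired exact permutation test, adjusted p = 0.0294, 9.47% of labels called). At 19 and 29 dpi it was 1.60% and 2.61%, with adjusted p-values of 0.206 and 0.103 in the exact permutation test and 0% of labels called. At 14 dpi the call was lost without any one of the 5 mice (exact permutation test, adjusted p = 0.0565 to 0.0646). A left-out mouse also raises the smallest p that this test allows. The adjusted p was 0.660 when the 5 mice were paired by subject in an exact sign-flip test. With 5 pairs the sign-flip test allows no p under 0.0625, so it could not make a call.

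The change since -2 dpi was also compared between treatments, as a test added after the first results were seen, with 12 comparisons. At 14 dpi it fell by 28.2 points more in EAE than in naïve mice, with p = 0.00866 and an adjusted p of 0.0433 in the exact permutation test. At 19 dpi it fell by 18.5 points more, with p = 0.0108 and the same adjusted p in the exact permutation test. Against CFA mice it fell by 28.3 points more at 19 dpi (exact permutation test, adjusted p = 0.0433), while the difference of -19.1 points at 14 dpi was not called (adjusted p = 0.119). At 29 dpi the difference of -26.6 points between EAE and naïve mice was not called (exact permutation test, adjusted p = 0.0844). The changes of EAE and CFA mice on that day differed by -0.920 points (exact permutation test, p = 0.885). Mean shares went from 31.5% to 2.61% in EAE mice and from 37.9% to 9.96% in CFA mice. A fall in points cannot exceed the share at -2 dpi.

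As a merged sequence, L1 was tested among 203 sequences. Its log2 fold changes against naïve mice were -5.32 ± 1.63, -4.75 ± 1.46 and -4.46 ± 1.44 (SE) at 14, 19 and 29 dpi, and those against CFA mice -4.67 ± 1.57 and -5.47 ± 1.51 at 14 and 19 dpi. It was lower in EAE than in naïve mice at 14 dpi (edgeR, adjusted p = 0.0411), with 0.493% of sequences called lower. The same held for 19 dpi (adjusted p = 0.0263, 3.45% called lower) and 29 dpi (adjusted p = 0.0339, 20.7% called lower). It was lower than in CFA mice at 14 dpi (edgeR, adjusted p = 0.0464, 2.46%) and 19 dpi (adjusted p = 0.0149, 5.91%). Without any one of the 5 EAE mice at 14 dpi, both calls of that day were lost, with adjusted p-values in edgeR of 0.0520 to 0.110 against naïve and 0.0578 to 0.0837 against CFA mice. Without EAE mouse 595 the call against naïve mice at 19 dpi was lost as well (adjusted p = 0.0618). All 5 calls were lost without the filter on rare sequences (edgeR, adjusted p = 0.0910 to 0.284), and the 2 at 14 dpi and that against naïve mice at 19 dpi were lost with total counts as library sizes (adjusted p = 0.0504 to 0.0704). The call against naïve mice at 29 dpi was also lost with only the compared groups in the fit (adjusted p = 0.225). At 8 dpi L1 was not called against naïve or CFA mice in edgeR, where 0% and 2.96% of sequences were called lower (adjusted p = 0.147 and 0.161). Against -2 dpi in EAE mice the adjusted p-values in edgeR were 0.0933, 0.0504 and 0.0846 at 14, 19 and 29 dpi, with 0% of sequences called lower.

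As deposited ASVs, 33 of the 107 members had counts in at least 3 samples and were tested, 28 of L1 and 5 of L2. Between EAE and naïve mice, edgeR called 21 members lower at 14 dpi, 18 at 19 dpi and 7 at 29 dpi, where 4.78%, 5.40% and 3.24% of all 648 ASVs were called lower. Between EAE and CFA mice it called 21 at 14 dpi, 18 at 19 dpi and 0 at 29 dpi, where 4.48%, 4.78% and 0.617% of ASVs were called lower. Against -2 dpi in EAE mice the numbers were 18, 18 and 7, at backgrounds of 3.40%, 5.09% and 2.78%. All calls were of L1. Without the filter on rare ASVs, edgeR called 0 members in each of these comparisons. These ASVs are not separate members in the biological sense, since they share a single insert and, in each sample, the same DNA extract.

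Which primer variants were called followed which were listed. At 14 dpi 21 variants had 0 counts in every EAE sample, and the same 21 were the ones called against naïve and against CFA mice. At 19 dpi this held for 18 variants, and at 29 dpi, against naïve mice, for 7. No variant with a count in any EAE sample of that day was called in edgeR, and the lowest adjusted p among these was 0.156, 0.0971 and 0.0705 against naïve mice on the 3 days. Fold changes of the absent variants depend on the prior count and are not given. Leaving out any EAE sample at 14 dpi lowered the number called against naïve mice from 21 to 0. Against CFA mice 14 to 19 were still called. The share of all ASVs called was not computed in these fits. DESeq2, which gave an adjusted p to 28 members, called 28 lower against naïve mice on all 3 days, where it called 23.3%, 23.8% and 22.6% of 412 ASVs lower.

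Because few variants were listed where counts were low, the shares were also computed with L1 counts divided by the share that the listed variants hold on average in the 48 complete samples. This scaling was added after the values were seen. It asks how high L1 would be if the variants not listed in a sample had been present at their usual share and their reads had been left out, and whether they were was not tested. It gave 92.2% for EAE mouse 555 at 8 dpi, against 39.5% as deposited, so it can overshoot. Only L1 was scaled, and sequences of other families kept their counts although they also listed few variants at low counts. The scaling raises L1 most where few of its variants were listed, so smaller differences are partly built into it.

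Scaled, the mean share in EAE and naïve mice was 14.7% and 30.7% at 14 dpi, with an adjusted p of 0.218 and a raw p of 0.0346 in the exact permutation test. The means were 9.34% and 23.7% at 19 dpi, with an adjusted p of 0.206 and a raw p of 0.0173, and 12.9% and 31.9% at 29 dpi, with an adjusted p of 0.443 and a raw p of 0.0563. EAE mice thus remained lower in the mean on these days, and the groups overlapped. The scaling cannot raise a sample without any listed variant. EAE mouse 595 at 19 dpi and EAE mouse 593 at 29 dpi therefore stayed at 0, which lowers the scaled EAE means of these days. At 8 dpi the order of the means turned, with 36.1% in EAE and 29.8% in naïve mice (exact permutation test, p = 0.732). That of the medians did not, at 15.8% and 24.6%. EAE mice 555 and 551, with total counts of 9202 and 17439, had scaled shares of 92.2% and 71.2%. The scaled log2 fold change of that comparison stayed negative in edgeR, at -1.47 (adjusted p = 0.417). Against CFA mice the scaled means were 9.34% and 36.6% at 19 dpi, with an adjusted p of 0.0411 and a raw p of 0.00216 in the exact permutation test, and 12.9% and 12.1% at 29 dpi (p = 0.879).

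In edgeR the scaled log2 fold change of L. johnsonii of EAE against naïve mice took values of -1.60, -2.14 and -2.16 at 14, 19 and 29 dpi, with adjusted p-values of 0.433, 0.162 and 0.137. Against CFA mice the values were -0.96, -2.82 and -0.20, with adjusted p-values of 0.728, 0.0799 and 1. None of the 8 calls made on the deposited counts was kept in edgeR under this scaling. Because L1 alone was raised, the lost calls do not show whether L1 was unchanged.

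**Figure D5:**
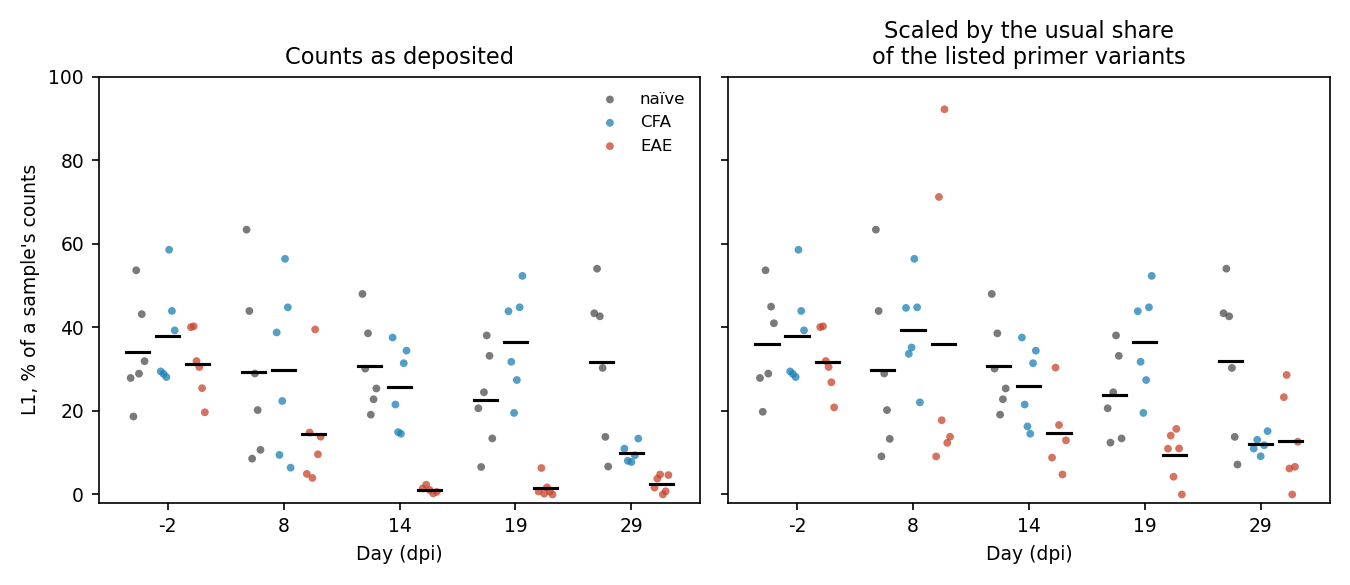
Share of L1 (y axis, percent of a sample's counts) by day (x axis) for naïve, CFA and EAE mice, with counts as deposited at the left and after scaling by the usual share of the listed primer variants at the right, a point per mouse and a black bar at the group mean. At 14 dpi the EAE mean is 1.14% at the left and 14.7% at the right.

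In the 85 samples with at least 100 counts of the family, L. johnsonii made up between 99.7% and 100% of it, and in 70 of them it was all of it. None of 108 exact permutation tests of species shares between groups was called (smallest raw p = 0.182, two-sided). With so few samples below 100%, these tests say nothing about whether the make-up of the family changed. In the 3 other samples, all EAE, the family had fewer than 100 counts.

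Beside the clinical score, L1 was low in EAE samples with a score of 0 and in those with a score above 0. The 3 EAE samples from 14 dpi on with a score of 0 had 1.07%, 0.258% and 0.185% of counts from L1. They came from mouse 591 at 14 and 19 dpi and mouse 593 at 14 dpi, and both mice scored above 0 on later days. Samples of the same mice thus stand on both sides. The 14 samples with a score above 0 had 0 to 6.34% (median 1.55%). The ranges overlapped, and mouse 593 at 14 dpi had a score of 0 and 0.258%.

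Outside the family, the merged sequences whose share of counts ran most like that of L1 over all 88 samples belonged to Prevotellaceae (Spearman's rho 0.32, in 76 samples) and Lachnospiraceae (0.26 and 0.25, in 24 and 27 samples), among 201 compared. The last, named Stomatobaculum longum, had a mean of 0% in naïve samples and 0% in EAE samples from 14 dpi on. These are descriptions across samples that share treatment and depth. Of other families of the class Bacilli, only Enterococcaceae were present, as 4 ASVs named Enterococcus faecalis.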

How the data were processed

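Fecal 16S amplicons were sequenced by the authors on an Illumina MiSeq, and ASVs were inferred with DADA2, with chimera removal by consensus. The authors deposited unscaled read counts for each ASV in each sample, with taxonomic names that they had curated by hand from several databases. The 89 samples of the table included a CFA sample at 29 dpi with a total of 0, which was left out. The water controls were not analysed here, and species names were not checked against reference sequences.

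Primers were cut off and identical inserts summed. Counts of species, merged sequences and ASVs present in at least 3 samples were tested with edgeR 4.0.16 in R 4.3.3 (quasi-likelihood test, 15 groups in a single fit, TMMwsp factors from genus counts, Benjamini-Hochberg adjustment over all features of a comparison, threshold 0.05). The SEs printed with edgeR values are the absolute log2 fold change divided by the square root of the test's F statistic. They were not estimated separately and add nothing to the p-value. DESeq2 1.42.0 was an alternative. Exact permutation and sign-flip tests used Python 3.11.15 and numpy 2.4.6. The tests were also run on simulated data with known changes. For edgeR those counts had a much smaller dispersion (spread between samples) than the fits here. Median dispersions of the fits were 13.2 for species, 30.0 for merged sequences and 55.0 for ASVs. That run therefore does not show how the edgeR test behaves at the spread of these counts. Samples of a group were separate mice, some of which shared a cage. Mouse numbers pair the days in naïve and CFA mice, since the same animals were sampled. In EAE mice they differ between -2 and 8 dpi and the later days, and the sample table's subject numbers, which pair them, were used where stated. Deviations from the group mean over 65 genera correlated with a median r of 0.05, 0.03 and 0.04 between days of the same naïve, CFA and EAE mouse, and of 0.00, 0.00 and -0.01 between different mice.

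All species names were named, and of merged sequences those with at least 1% of the family's counts or in at least 9 samples, at most 12. Also named were the 5 ASVs with the most counts, other Bacilli families and the 3 sequences running most like L1. The members, lists and tests were chosen with earlier results of these data known.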

Additional observations from a re-analysis of the deposited data

Results flagged for a closer look

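In 2 of 15 groups a sample lay far from the others in its share of L1, where chance alone gives about 1 in 20 groups. EAE mouse 555 at 8 dpi had 39.5%, and the gap to the next mouse was 0.694 of the group's range. That sample had 9202 counts in 4 ASVs. EAE mouse 589 at 19 dpi had 6.34%, and the gap was 0.731 of the range.

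The change in L. johnsonii since -2 dpi differed between treatments in 3 of 12 comparisons, by an exact permutation test adjusted over the 12. EAE minus naïve mice gave -28.2 percentage points at 14 dpi and -18.5 points at 19 dpi. EAE minus CFA mice gave -28.3 points at 19 dpi. Each had an adjusted p of 0.0433 in the exact permutation test. EAE mice were joined by subject number here.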

How the results depend on the processing

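L. johnsonii kept its direction in all edgeR and DESeq2 alternatives for the comparisons of EAE mice with naïve mice, CFA mice and -2 dpi from 8 dpi on. With DESeq2 it was also called between EAE and naïve mice at 8 dpi (log2 fold change -2.82), between EAE and CFA mice at 8 and 29 dpi (-2.25 and -2.68), between CFA mice at 29 and -2 dpi (-2.27) and between EAE mice at 8 and -2 dpi (-2.33). With the scaling by listed primer variants, chosen after seeing the data, no call was kept. It raised L1 alone, so smaller differences were partly built in. The values were -1.60, -2.14 and -2.16 for EAE against naïve mice at 14, 19 and 29 dpi, -0.96 and -2.82 for EAE against CFA mice at 14 and 19 dpi, and -1.38, -2.26 and -1.48 for EAE mice against -2 dpi at 14, 19 and 29 dpi. Without a filter the call of EAE mice at 29 against -2 dpi was lost at -3.76. With only the groups compared in the fit, calls were lost for EAE against naïve mice at 29 dpi (-4.46) and EAE mice at 19 and 29 against -2 dpi (-4.78 and -3.76), and gained for CFA mice at 29 against -2 dpi (-1.87).

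For L1 as a merged sequence, DESeq2 added calls for EAE against naïve mice at 8 dpi (-3.50), EAE against CFA mice at 8 and 29 dpi (-2.70 and -2.68) and EAE mice against -2 dpi at 8, 14, 19 and 29 dpi (-3.08, -6.35, -5.39 and -4.21). Without a filter all 5 calls were lost, at -5.32, -4.75 and -4.46 against naïve mice at 14, 19 and 29 dpi and at -4.67 and -5.47 against CFA mice at 14 and 19 dpi. With total counts the calls at 14 dpi (-4.74 against naïve, -4.49 against CFA) and against naïve mice at 19 dpi (-3.82) were lost. Without EAE mouse 595 the last was lost as well, at -4.49. With only the groups compared, the call against naïve mice at 29 dpi was lost (-4.46), and calls came in for CFA mice at 29 against -2 dpi (-1.87) and EAE mice at 14, 19 and 29 against -2 dpi (-5.48, -4.77 and -3.76).

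With the subject number as a replicate block, which pairs EAE mice, the species call at 29 against -2 dpi was lost (-4.43), and L1 as a merged sequence was called at 14 and 29 dpi (-5.61 and -4.43). The number of members called as ASVs under this block was 0, 6 and 0 at 14, 19 and 29 dpi, where 0%, 7.69% and 0% of the tested ASVs were called lower, and the share of L. johnsonii at 14 dpi, lower by -31.5 points, was not called. That share was tested by sign flips over 5 pairs, which allow no p under 0.0625, so no call was possible. The block by the mouse number of the labels changed no call.

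Among ASVs, DESeq2 gave an adjusted p to 412, of which 28 were members, all of L1. It called 18 members lower for CFA against naïve mice at 29 dpi, where it called 22.8% of the 412 lower. For EAE against naïve mice it called 22 at 8 dpi (24% of all lower) and 28 at 19 and at 29 dpi (23.8% and 22.6%). For EAE against CFA mice it called 4, 28 and 11 at 8, 19 and 29 dpi (22.8%, 21.4% and 18.4%). For EAE mice at 8, 14, 19 and 29 against -2 dpi it called 17, 28, 28 and 28 (18.2%, 21.1%, 22.3% and 18%). Without a filter the 8 counts above 0 in edgeR became 0, and with only the groups compared 5 were called for EAE against CFA mice at 29 dpi (16.4% of 116 ASVs lower).

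For shares, the scaling turned the difference in means between EAE and naïve mice at 8 dpi (6.26 points), EAE and CFA mice at 29 dpi (0.820 points) and EAE mice at 8 and -2 dpi (4.19 points), none of which had been called. The medians of scaled L1 kept their order in these comparisons. The scaling ended the calls at 14 dpi against naïve (-16.0 points), CFA (-11.3 points) and -2 dpi (-17.2 points). The call for EAE against CFA mice at 19 dpi was lost on the centred log ratio scale (-7.07 on the log2 scale) and without EAE mouse 595 (-34.7 points), and that for EAE mice at 14 against -2 dpi on the log10 scale (-1.51).

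Leaving out each mouse of the groups of 5 kept every species call in edgeR, with a range of -5.66 to -5.08 for EAE against naïve mice at 14 dpi. The L1 calls at 14 dpi were lost without any of the 5 EAE mice, at -5.65 to -5.08 against naïve and -5.01 to -4.43 against CFA mice. The numbers of members called as ASVs at 14 dpi were 0 to 0 against naïve mice and -2 dpi, and 14 to 19 against CFA mice. The share calls were lost at -29.8 to -29.3 points against naïve mice, -24.9 to -24.4 points against CFA mice and -30.6 to -30.1 points against -2 dpi. For these shares a left-out mouse also raises the smallest p that the permutation test allows. L. gasseri had at least 3 counts in 3 samples and any count in 6. The cause of these changes was not tested. Depth limits the rare names: at most 47 counts lie behind any sequence beyond L1 and L2.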

Other observations

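Of the merged sequences outside the family, those running most opposite to L1 over 88 samples were named Clostridium celatum/disporicum (Spearman's rho -0.66), Soleaferrea massiliensis (-0.56) and Ruminiclostridium (-0.56). They were chosen after their values were seen. The first held a mean of 0.823% of counts in naïve samples and 6.66% in EAE samples at 14, 19 and 29 dpi.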
